A study of Mus musculus with 12 samples.

Results

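The regions described here are 1320 bins of 10 kb in mouse embryonic stem cells (ESCs) that overlapped KLF4 peaks of induced pluripotent stem cells (iPSCs) and carried a value for acetylation of histone H3 at lysine 27 (H3K27ac) before induction of a KLF knockout (0 h), but no such value 24 h after it. The bins were selected on these measured values: a 0 h value, no 24 h value, and an overlap of 1 bp or more with a KLF4 peak of iPSCs, which is what KLF4-bound means below. They were 1320 of the 54825 bins listed at either time and 1320 of the 10177 KLF4-bound bins with a 0 h value, or 13.0% (12.3 to 13.6, 95% exact Clopper-Pearson interval). Over all 26812 bins valued at 0 h, with or without KLF4, 15.2% had no 24 h value; the choice of bins used this contrast, and nothing is read from the 2 shares. The working label for these bins was acetylation at 0 h only, and the lists do not bear it out for most of them. Of the 1320 bins, 855 (64.8%, 62.1 to 67.4) were absent from the 24 h list, so their acetylation at 24 h is not known here. The other 465 (35.2%) stood in the 24 h list without a value. Both kinds are described side by side below, as the absent and the listed 0 h-only bins.

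The 12 ChIP-seq samples fell into 7 groups, and coordinates are those of mm10. The ESCs were V6.5 clones picked by hand after puromycin selection, all carrying the lentiviral c3GIC9 vector, with guides against KLF4 only or against KLF2, KLF4 and KLF5 in tandem. In this vector the TRE3G promoter, switched on by doxycycline, drives Cas9-P2A-GFP, and a PGK promoter drives puromycin resistance and rtta. The 24 h group had 2 H3K27ac samples taken 24 h after doxycycline; their titles say both TKO and KLF4 KO, so the labels do not settle which genes were cut. The 0 h group had 2 H3K27ac samples of the same uninduced lines, titled WT although they carry the vector and guides too, and 2 inputs accompanied the ESC samples. The iPSCs gave 2 KLF4 and 2 H3K27ac samples, with 1 input for each. All were labelled as grown in 2i, and the ESC protocol gives medium with LIF and serum on irradiated feeder cells. KLF4 binding was thus taken from iPSCs, and KLF4 occupancy in the ESCs themselves was not analysed here.

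KLF4 is a zinc-finger transcription factor of the naive pluripotency network that binds GC-rich motifs at promoters and enhancers and acts beside its relatives KLF2 and KLF5. H3K27ac is laid down by the acetyltransferases p300 and CBP and marks active promoters and enhancers. In ESCs, KLF4 shares many of its sites with OCT4, SOX2, NANOG and ESRRB.

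Promoter sequences are shown for 7 genes, because a KLF4 peak lay on the promoter itself and the gene start lay inside a 0 h-only bin. Of the 294 genes with such a promoter, 6 were in the gene lists described further on: the Polycomb genes Ezh1, Kdm2b, Pcgf6 and Rnf2, the KLF-family gene Klf11 and the signalling inhibitor Spred1. Igsf3 is added as a gene with 4 of the 0 h-only bins around it. Each sequence is RefSeq's for GRCm38.p6, which has the same primary assembly as mm10. It runs 5′ to 3′ along the gene's strand from 250 bases before the start to 50 after it, and capitals mark GGGNGTG, a core of the KLF motif, or its reverse complement CACNCCC.
Ezh1, chr11:101226414-101226713, minus strand: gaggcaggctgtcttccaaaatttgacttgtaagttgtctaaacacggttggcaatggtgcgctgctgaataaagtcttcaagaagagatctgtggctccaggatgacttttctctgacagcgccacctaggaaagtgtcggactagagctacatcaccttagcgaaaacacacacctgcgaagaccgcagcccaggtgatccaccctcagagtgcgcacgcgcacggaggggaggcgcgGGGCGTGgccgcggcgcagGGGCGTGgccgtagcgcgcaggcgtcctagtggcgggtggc
Kdm2b, chr5:122900318-122900617, minus strand: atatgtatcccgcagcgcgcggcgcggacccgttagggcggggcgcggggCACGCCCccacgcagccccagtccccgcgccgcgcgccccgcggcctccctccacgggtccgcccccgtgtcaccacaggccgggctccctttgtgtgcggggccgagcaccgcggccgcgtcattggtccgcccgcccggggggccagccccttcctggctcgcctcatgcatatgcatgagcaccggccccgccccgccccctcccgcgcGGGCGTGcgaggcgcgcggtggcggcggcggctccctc
Pcgf6, chr19:47050857-47051156, minus strand: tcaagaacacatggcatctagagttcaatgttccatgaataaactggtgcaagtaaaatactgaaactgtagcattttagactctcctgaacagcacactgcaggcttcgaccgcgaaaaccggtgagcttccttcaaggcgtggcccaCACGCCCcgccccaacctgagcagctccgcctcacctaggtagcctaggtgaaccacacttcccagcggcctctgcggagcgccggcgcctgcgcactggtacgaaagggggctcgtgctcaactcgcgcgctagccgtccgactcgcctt
Rnf2, chr1:151500942-151501241, minus strand: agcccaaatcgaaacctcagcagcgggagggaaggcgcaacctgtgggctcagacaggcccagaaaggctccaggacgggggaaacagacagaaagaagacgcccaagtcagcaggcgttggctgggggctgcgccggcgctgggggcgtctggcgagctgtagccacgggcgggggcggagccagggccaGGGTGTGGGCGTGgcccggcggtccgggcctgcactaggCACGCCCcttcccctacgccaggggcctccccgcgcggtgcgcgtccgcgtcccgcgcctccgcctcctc
Klf11, chr12:24651121-24651420, plus strand: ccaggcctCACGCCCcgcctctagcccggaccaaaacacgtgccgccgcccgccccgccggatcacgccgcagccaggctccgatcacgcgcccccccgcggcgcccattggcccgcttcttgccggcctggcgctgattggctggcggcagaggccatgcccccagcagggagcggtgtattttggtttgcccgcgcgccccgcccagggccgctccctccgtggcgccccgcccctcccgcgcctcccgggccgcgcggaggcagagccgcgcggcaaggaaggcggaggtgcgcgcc
Spred1, chr2:117120821-117121120, plus strand: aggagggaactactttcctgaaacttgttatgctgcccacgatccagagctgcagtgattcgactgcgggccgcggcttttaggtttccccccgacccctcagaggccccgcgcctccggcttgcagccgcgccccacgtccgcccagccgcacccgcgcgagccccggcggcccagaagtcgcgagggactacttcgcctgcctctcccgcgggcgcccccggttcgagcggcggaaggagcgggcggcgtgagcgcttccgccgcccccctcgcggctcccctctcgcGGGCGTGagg
Igsf3, chr3:101376875-101377174, plus strand: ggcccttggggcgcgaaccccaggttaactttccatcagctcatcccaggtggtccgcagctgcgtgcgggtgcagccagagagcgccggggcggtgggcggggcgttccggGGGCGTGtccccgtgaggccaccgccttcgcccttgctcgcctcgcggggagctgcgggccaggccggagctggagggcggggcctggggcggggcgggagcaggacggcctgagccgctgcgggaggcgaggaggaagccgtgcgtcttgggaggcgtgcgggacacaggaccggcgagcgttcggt
All 7 windows held the motif: 3 sites at Rnf2, of which 2 overlap, 2 sites each at Ezh1 and Kdm2b, and 1 at each of the others. Of all 294 genes with such a promoter, 159 had the motif. The centre of the KLF4 peak lay 7 bases downstream of the start at Ezh1 and 244 bases downstream at Klf11. It lay upstream at the others, by 30 bases at Rnf2, 61 at Igsf3, 144 at Spred1, 145 at Pcgf6 and 210 at Kdm2b. The Kdm2b window belongs to a start inside the gene body, not at either end of the gene.

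The lists hold 1 value per bin and time for each ESC group, with no replicate values, so there is no spread between samples and no test, and read depth is unknown. The 24 h list had 25611 valued bins among 47307, and the 0 h list had 26812 among 49460. Over the 22739 bins valued at both times the median log2 ratio of 24 h over 0 h was -0.23, a ratio of 0.854. Whether the 2 times were scaled to each other is not stated in the labels or lists, so ratios are given relative to that median. All 8 ESC marker genes had valued bins at both times, with the highest value per gene between 6.45 and 24.2 at 24 h and between 8.73 and 29.7 at 0 h. Of 10 fibroblast markers, which feeder cells could bring, 5 had valued bins at both times, with highest values of 3.56 to 6.71 at 24 h and 4.32 to 9.53 at 0 h. Col1a2, Postn, Twist1, Prrx1 and Fbn1 had none.

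The 0 h-only bins had a lower median 0 h value than the 8857 KLF4-bound bins valued at both times. It was 3.86 (quartiles 3.05 and 5.22), against 5.79 (4.31 and 7.73). Of the 0 h-only bins, 450 lay above 4.65, the median of all bins valued at 0 h. The listed bins were the lower of the 2 kinds, with a median of 3.18 and a highest value of 9.02. The absent bins had a median of 4.50 and reached 19.4. The 2753 bins without KLF4 that also had a 0 h value only had a median of 3.44. These values chose the bins and are given as a description. Near the limit, the 5 lowest 0 h values of the 0 h-only bins ran from 1.75 to 1.97, and the 5 lowest 24 h values among the KLF4-bound bins valued at both times ran from 1.53 to 1.58. A further 1884 KLF4-bound bins were listed at 0 h with no value.

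**Figure D1:**
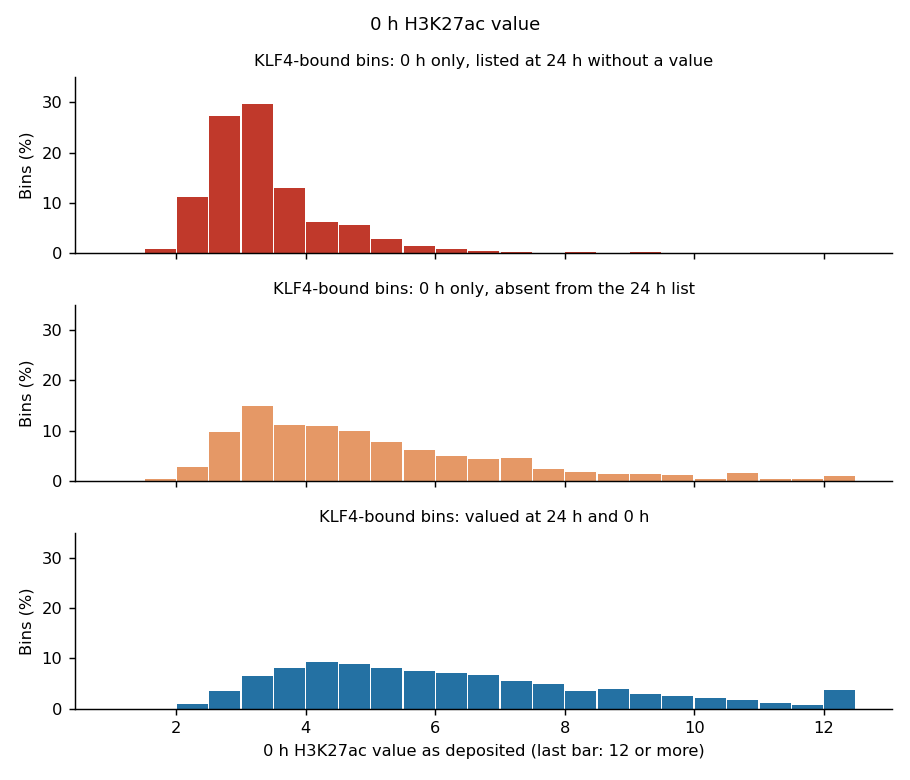
Share of bins (%) by 0 h H3K27ac value as deposited, for KLF4-bound bins listed at 24 h without a value (top), KLF4-bound bins absent from the 24 h list (middle) and KLF4-bound bins valued at both times (bottom). The top panel is narrow with a median of 3.18, the middle one reaches further with a median of 4.50, and the bottom one has a median of 5.79.

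By decile of the 0 h value, the share of KLF4-bound bins without a 24 h value was 44.9% in the lowest decile, 32.3% in the second, 12.4% in the fifth and 4.04% in the highest. In bins without KLF4 the same shares were 33.3%, 24.6%, 14.0% and 4.91%. These shares rest on the values that chose the bins and are given as a description, with no comparison read from them. Listed bins without a value made up 27.2% of KLF4-bound bins in the lowest decile and 1 of 1584 in the highest. Absent bins made up 17.7% in the lowest decile and still 3.98% in the highest.

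**Figure D2:**
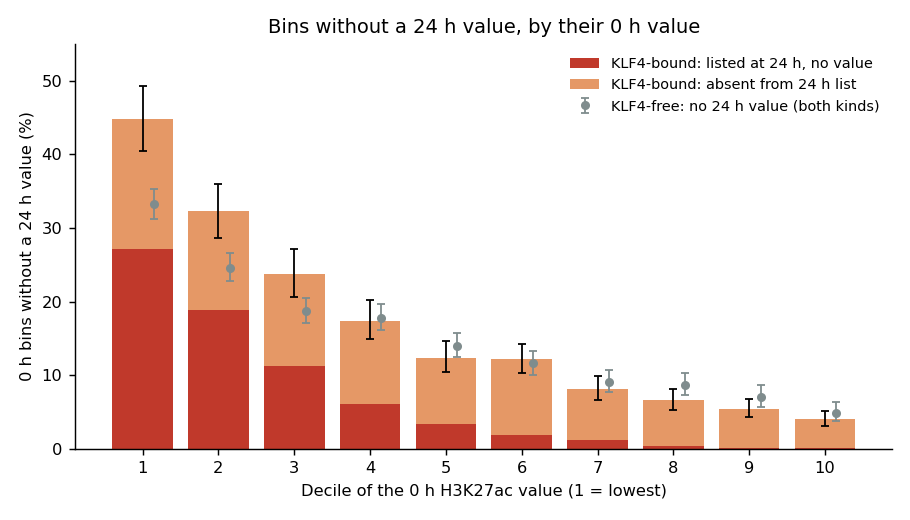
Share of bins valued at 0 h that had no 24 h value (%), by decile of the 0 h H3K27ac value. Bars are KLF4-bound bins, split into those listed at 24 h without a value and those absent from the 24 h list; points are KLF4-free bins, and lines are 95% exact intervals for counting error. Bars fall from 44.9% to 4.04% from the lowest decile to the highest, and the listed kind is nearly gone in the highest.

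Each listed bin also has a whole number of 1 or more, the bin score, whose meaning the lists do not state. It comes from the lists that chose the bins, so it too is a description. Absence from the 24 h list went with a low 0 h score. The 0 h score had a median of 1 in the absent bins, of which 56.5% had a score of 1, and a median of 4 in the listed bins and of 6 in the KLF4-bound bins valued at both times. Among KLF4-bound bins with a 0 h value, the share absent at 24 h was 41.0% at a 0 h score of 1, 8.91% at 3, 4.96% at 4 and 0.50% (3 of 605) at 8. KLF4-free bins showed the same order, with 34.5%, 5.76%, 2.21% and 0.35%. Whether these bins had lost acetylation or only their entry in the list was not tested.

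Among the 465 listed bins, the score itself was lower at 24 h. Its median was 2 at 24 h and 4 at 0 h, and its sum was 1114 at 24 h and 2084 at 0 h, so that 34.8% of the summed score of both times belonged to 24 h. The score was lower at 24 h in 361 bins (77.6%, 73.6 to 81.3), equal in 83 and higher in 21. In the KLF4-bound bins valued at both times 46.4% of the summed score belonged to 24 h, and 54.1% of bins had a lower score at 24 h. In KLF4-free bins that were listed at both times and valued at 0 h only, the score was lower at 24 h in 899 of 1299 (69.2%), and 37.8% of the sum belonged to 24 h. The mirror set, 166 KLF4-bound bins listed at both times and valued at 24 h only, went the other way: the score was higher at 24 h in 63.9% of them, and 61.6% of its sum belonged to 24 h. At equal 0 h score the listed 0 h-only bins were below the KLF4-bound bins valued at both times and near the KLF4-free bins. At a 0 h score of 4 the mean 24 h score was 2.07 in the listed 0 h-only bins, 3.52 in KLF4-bound bins valued at both times and 2.40 in KLF4-free 0 h-only bins. At 10 or more it was 5.75, 11.5 and 6.25 in the same order of groups. In KLF4-free bins valued at both times 40.5% of bins had a lower score at 24 h. Among bins valued at 1 time only, the score was thus more often lower at the time without a value, and for a missing 24 h value this was seen with and without a KLF4 peak.

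**Figure D3:**
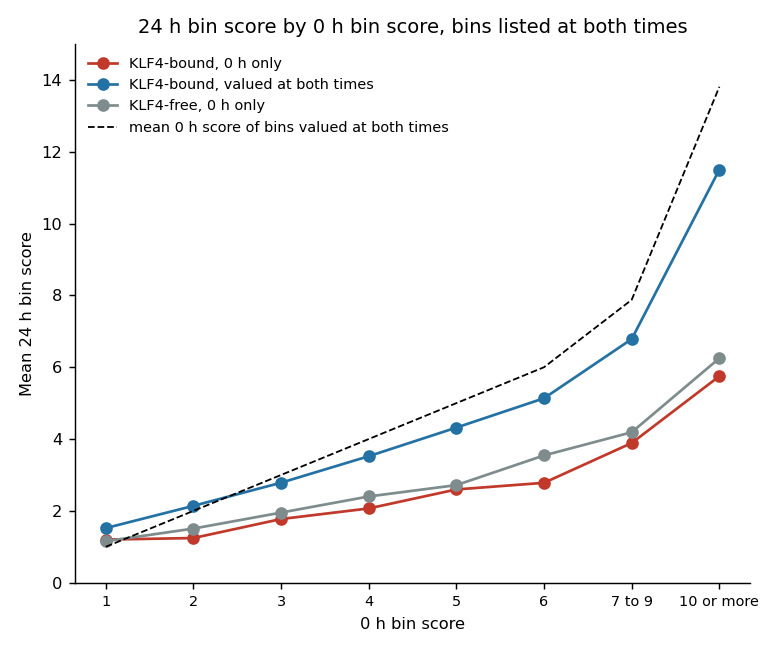
Mean 24 h bin score by 0 h bin score for bins listed at both times: KLF4-bound bins valued at 0 h only, KLF4-bound bins valued at both times and KLF4-free bins valued at 0 h only. The dashed line is the mean 0 h score of the KLF4-bound bins valued at both times. The 2 sets of 0 h-only bins run together, at 2.07 and 2.40 for a 0 h score of 4, below 3.52 for bins valued at both times.

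Acetylation in iPSCs, which the choice of bins did not use directly, separated the 2 kinds. The choice did use KLF4 peaks of iPSCs. Of all KLF4 peaks in bins valued at 0 h, 70.7% overlapped an iPSC H3K27ac peak. The lower shares in KLF4-free bins below are thus partly set by the choice. An iPSC H3K27ac peak lay in 66.0% of the 0 h-only bins (63.4 to 68.5), in 77.5% (74.6 to 80.3) of the absent ones and in 44.7% (40.2 to 49.4) of the listed ones. The share was 92.1% in KLF4-bound bins valued at both times and 34.5% in KLF4-free 0 h-only bins. Since the share followed the 0 h value, it was also compared by quartile group of that value. In the lowest group it was 42.5% in the listed bins and 53.3% in the absent ones, with intervals that overlapped, against 67.3% in KLF4-bound bins valued at both times and 23.5% in KLF4-free 0 h-only bins. In the third group it was 50.0% in the 36 listed bins and 87.0% in the absent ones, against 96.3% and 53.6%. In the highest group the absent bins reached 96.6% (92.8 to 98.8), against 98.9% (98.5 to 99.3) in KLF4-bound bins valued at both times, and the intervals overlapped. That group held only 5 listed bins, of which 2 had an iPSC peak (40.0%, 5.27 to 85.3). The listed bins had an iPSC peak less often than KLF4-bound bins valued at both times in each group, with intervals that did not overlap, while the strongest absent bins were acetylated in iPSCs nearly as often as bins valued at both times. The KLF4 peaks themselves followed the same order: 25.3% of 562 peaks in listed bins and 54.5% of 992 in absent bins overlapped an iPSC H3K27ac peak, against 74.4% of 11300 in bins valued at both times.

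**Figure D4:**
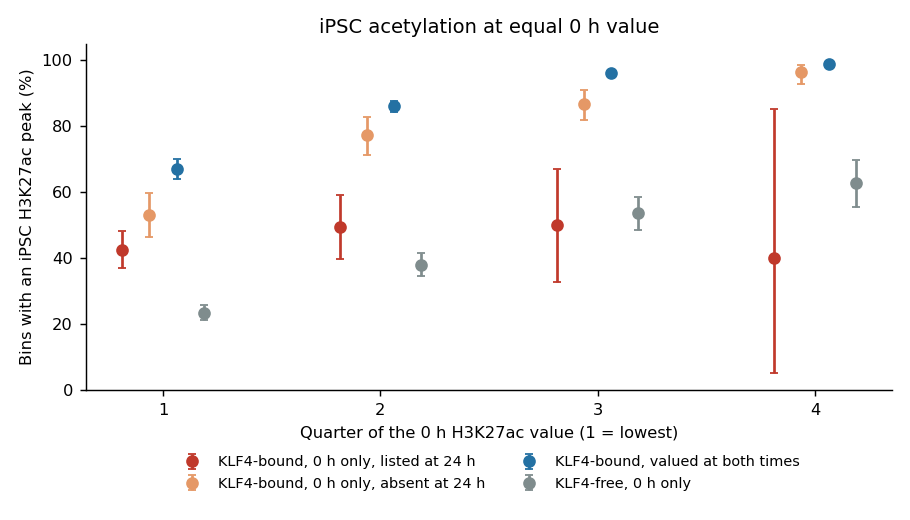
Share of bins with an iPSC H3K27ac peak (%) by quartile group of the 0 h H3K27ac value, with 95% exact intervals for counting error, for KLF4-bound 0 h-only bins listed at 24 h, KLF4-bound 0 h-only bins absent at 24 h, KLF4-bound bins valued at both times and KLF4-free 0 h-only bins. The absent bins approach the bins valued at both times in the highest group (96.6% and 98.9%), and the listed ones lie between 40% and 50%, with only 5 listed bins in the highest group (interval 5.27 to 85.3).

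KLF4 itself was somewhat sparser in the 0 h-only bins. They held 1552 KLF4 peaks, and 1118 of the 1320 bins held a single one. A second peak was present in 15.3% of them (13.4 to 17.4), against 24.3% (23.4 to 25.2) of KLF4-bound bins valued at both times. Peak width had a median of 271 bp (260 in listed and 278 in absent bins), against 281 bp. The peaks were also farther from genes. A gene start lay within 1 kb of 25.0% of them, against 32.9% in bins valued at both times, and none lay within 50 kb of 344 (22.6%), against 1372 of 10947. That distance was mainly one of the absent bins, at 29.4%, with 10.8% in the listed ones. Gene starts on chromosome 18 were not used here.

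Against KLF4-bound bins valued at both times, the 0 h-only bins as a whole were likewise more often away from genes. Within 2 kb of 44.5% of them there was a protein-coding gene's start or end (50.3% of the listed and 41.3% of the absent ones), against 54.9% of KLF4-bound bins valued at both times and 32.6% of KLF4-free 0 h-only bins. Over all bins valued at 0 h the share was 44.7%. In the lowest quartile group of the 0 h value it was 54.3% in listed and 43.7% in absent bins. KLF4-bound bins valued at both times had 55.1% there. In the highest group it was 29.3% in the 0 h-only bins, against 51.0% in KLF4-bound bins valued at both times. No protein-coding gene end was found within 100 kb of 16.8% of the absent bins and 4.30% of the listed ones. In KLF4-bound bins valued at both times that share was 4.54%. The 0 h-only bins were scattered: 1224 stood alone, 48 runs held 2 neighbours and no run was longer. A bin next to them had a 24 h value in 61.1% of the listed and 19.4% of the absent bins, against 78.4% for KLF4-bound bins valued at both times. In 123 absent bins a bin alongside had the same 0 h value to the last digit, and in 58 of these (47.2%) that neighbour still had a 24 h value. The 225 neighbours that were KLF4-bound and valued at both times had a median log2 ratio of 24 h over 0 h of -0.17 relative to the median of all bins, against -0.08 over all 8857 KLF4-bound bins valued at both times. KLF4-bound neighbours of the KLF4-free 0 h-only bins had the same median, -0.17 (639 bins). For 63 of the KLF4-bound 0 h-only bins and 156 of the KLF4-free ones, a neighbour with a 24 h value shared the bin's 0 h value. The neighbours' ratios may thus rest partly on the values that chose the bins. These medians have no interval and are given as a description, with no comparison read from them.

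Promoters inside the bins were searched for GGGNGTG on both strands in windows of 250 bases before to 50 after the start. Of 326 windows that started in a 0 h-only bin and lay under a KLF4 peak, 173 (53.1%, 47.5 to 58.6) held it, with 55.5% in listed and 51.9% in absent bins. The share was 45.8% (1411) of 3083 such windows in KLF4-bound bins valued at both times, and the intervals of these 2 shares overlapped. It was 34.5% of the 264 windows in 0 h-only bins without a KLF4 peak on them, and 29.1% of all 32817 windows. The octamer ATGCAAAT was found in 1.84% and the STAT motif TTCCNNGAA in 3.68% of the 326 windows, against 1.23% and 3.70% of the 3083. The ESRRB motif TCAAGGTCA was in 0 of the 326 and in 5 of the 3083. A match is a run of letters, not a shown binding site.

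By nearest gene end within 100 kb, 1156 of the 1320 bins were assigned to 1058 protein-coding genes. These were 16.6% of the 6374 genes with a KLF4-bound bin valued at 0 h, the background for the gene counts that follow; the rule used this contrast too. Of these genes, 969 had 1 such bin and 7 had 3 or more. Around Igsf3, which encodes an immunoglobulin-superfamily membrane protein, 4 of 7 KLF4-bound bins were 0 h-only. Their 0 h values were 3.48, 3.16, 2.70 and 4.01. The first 3 were listed at 24 h with scores of 3, 4 and 3, against 7, 8 and 5 at 0 h. Between the last 2 of the 4, a pair of neighbouring bins inside the gene shared a value of 5.98 at 24 h, against 7.71 at 0 h. Another pair there shared 2.41 at 24 h, against 6.05 at 0 h. The log2 ratios relative to the median of all bins were -0.14 and -1.10. Some bins in the body of Igsf3 thus kept a value, while the bin of its start and another bin in its body had none. At Ccdc60, a coiled-coil protein gene, 4 of 5 bins were 0 h-only at low 0 h values of 2.70, 2.76, 3.50 and 2.76, and 1 of the 4 was listed at 24 h.

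At 2 of the 7 genes no assigned bin had a 24 h value. Gja1, encoding the gap-junction protein connexin 43, had 3 such bins with 0 h values of 4.00, 5.35 and 4.07. Dnajc5b, a member of the DNAJ co-chaperone family, had 3 with 5.09, 10.97 and 6.38. All 6 were absent from the 24 h list, so no 24 h level is known, and their 0 h scores were 2 to 6. Ndrg1, a stress-responsive gene, had 3 with 2.76, 2.76 and 3.16, the first 2 being neighbours. Beside the third bin, 2 bins had a value of 2.70 at 24 h, against 6.14 at 0 h, a log2 ratio of -0.96 relative to the median of all bins. Myof, encoding the membrane-repair protein myoferlin, and Ptpn3, encoding a tyrosine phosphatase, had 3 each with 0 h values from 2.84 to 4.36. At Myof a bin listed at both times had a score of 1 at 24 h and 8 at 0 h.

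The highest 0 h values all belonged to absent bins with 0 h scores of 1 to 3. The highest, 19.4, was a bin 141790 bp from Negr1, a neuronal cell-adhesion gene, and 7 of the 10 highest lay more than 50 kb from any gene end. At Zfp975, a zinc-finger gene, the bin had a 0 h value of 15.98. The bin next to it had the same 0 h value of 15.98 and a value of 8.52 at 24 h. The same held 81692 bp from Galnt13, encoding a glycosyltransferase, where the neighbour had 4.75 at 24 h and 13.15 at 0 h. It also held 144285 bp from 1700015G11Rik, where the neighbour had 5.70 at 24 h and 12.00 at 0 h. In these 3 places the 0 h-only call thus stood beside a bin of equal 0 h value that did have a 24 h value. Elsewhere among the 10 it did not hold. The bins 321135 bp from B020011L13Rik (11.82) and 822342 bp from Phf3 (11.62) each had a neighbour of equal 0 h value without a 24 h value.

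Among listed bins, which were singled out after their values had been seen, the highest 0 h values were lower. They were 9.02 near Arhgef6, encoding a guanine-nucleotide exchange factor for RAC and CDC42, 8.30 near Rerg, encoding a RAS-like GTPase, 7.24 at Rab44, encoding a RAB GTPase, and 6.64 near Ublcp1, encoding a phosphatase that acts on the proteasome. The bin near Arhgef6 had a score of 1 at 24 h and 7 at 0 h. At Rab44 the order was the other way, with 5 at 24 h and 3 at 0 h. The highest 0 h scores among all 0 h-only bins were also those of listed bins. At Sfxn3, encoding a mitochondrial serine transporter, the score was 6 at 24 h and 20 at 0 h, with a 0 h value of 3.75. Near Btrc, which encodes an F-box protein that targets beta-catenin for degradation, 2 bins had scores of 5 and 2 at 24 h, against 19 and 14 at 0 h. At Emp2, a tetraspan membrane protein gene, and at Taf11, a subunit of general transcription factor TFIID, the score was 2 at 24 h and 12 at 0 h in both. Near Zdhhc22, of the palmitoyltransferase family, the scores were closer, with 10 at 24 h and 13 at 0 h. The most KLF4 peaks stood at Crip2, encoding a LIM-domain protein, with 5 peaks in a listed bin with a 0 h value of 3.00. Mtus2, Ralgps1 and Rab11fip1 were among those with 4 each.

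Gene lists gave the 0 h-only bins by function, as a share of the KLF4-bound 0 h bins assigned to each list's genes. Over all protein-coding genes this share was 12.0% (1156 of 9611 bins). Naive pluripotency genes had 58 such bins, with a median 0 h value of 8.73 against 5.48 over all, and a single one was 0 h-only. It lay 53428 bp from Prdm14, a repressor that guards the naive state, had a 0 h value of 3.58, and was listed at 24 h with a score of 5, against 8 at 0 h. The 7 other valued bins of Prdm14 kept a 24 h value. Shared pluripotency genes had 1 of 34, a bin 52800 bp from the zinc-finger gene Sall4 with a 0 h value of 1.97. Formative and primed genes had 0 of 11, and genes of the LIF and STAT3 pathway, which sustains self-renewal, 0 of 25. The 9 lists with a share below 6% had median 0 h values between 6.25 and 8.93 in their KLF4-bound bins, against 5.48 over all genes. The lists with a share above 12.0% had medians from 5.12 (neuroectoderm) to 7.14 (Polycomb). FGF and ERK signalling was at 6.57, and the rest of them were at 6.13 (trophectoderm) or below. Whether the level accounts for these shares was not tested.

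In the KLF and SP family 3 of 57 bins were 0 h-only. Klf11, a TGF-beta-inducible repressor, had its only valued bin at its promoter, at 10.24 at 0 h, and that bin was absent at 24 h. At Klf8 the bin was listed, with scores of 2 at 24 h and 7 at 0 h and a 0 h value of 6.14. Another Klf8 bin, also KLF4-bound, had a value of 6.08 at 24 h and 12.6 at 0 h, a relative log2 ratio of -0.83. At Klf13 a distant bin had 3.46 at 0 h. In the Wnt pathway 2 of 17 bins were 0 h-only. Axin2, a feedback inhibitor of Wnt signalling, had 11.22 at 0 h in a bin absent at 24 h, and no other bin of it was valued. Wnt3, a ligand, had 2.61. In FGF and ERK signalling 4 of 29 were 0 h-only, all absent at 24 h: at the pathway inhibitors Spred1 (3.97), Spry1 (4.14) and Spred2 (2.47, 94442 bp away) and near the adaptor gene Grb2 (2.97). Spry1 also had 2 bins valued at 24 h only, a KLF4-bound one at 3.37 and another at 3.02, and Spred2 had 13 bins with a value at 24 h and 12 at 0 h. Among junction and adhesion genes it was 5 of 35, of which 3 were at Gja1, with 2.79 near Epcam and 2.85 at Pkp2, encoding a desmosomal plakophilin. Pkp2 also had a bin valued at 24 h only, at 4.62.

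Polycomb genes, which encode repressors that modify histones, had 4 of 21 bins that were 0 h-only and 4 of 13 genes, and all 4 bins held a KLF4 peak on a promoter, as the sequences above show. The 0 h value was 7.14 at Rnf2, the E3 ligase for histone H2A, 5.63 at Pcgf6, a subunit of a variant PRC1 complex, 4.60 at Kdm2b, which recruits PRC1 to CpG islands, and 2.39 at Ezh1, a histone methyltransferase. Those of Rnf2, Pcgf6 and Ezh1 were absent at 24 h. No bin of Rnf2 (5 valued at 0 h) or Ezh1 (2 valued at 0 h) had a 24 h value, with or without KLF4. At Rnf2 a neighbour without a KLF4 peak had the same 0 h value of 7.14. At Pcgf6, 1 of 2 bins had a 24 h value. The Kdm2b bin was listed, with a score of 3 at 24 h and 4 at 0 h. Its left neighbour shared its 0 h value of 4.60 and had 3.16 at 24 h. The BAF complex had 1 of 6, at Smarca4 (3.50), an ATPase of the complex. Genes for CTCF, cohesin and Mediator had 0 of 18, for DNA methylation and TET enzymes 0 of 9, for glycolysis 0 of 27 and for cytosolic ribosomal proteins 0 of 11. Lineage lists were small: trophectoderm had 2 of 16 (Elf5 and Esx1), mesendoderm 1 of 4 (Wnt3), neuroectoderm 1 of 7 (Neurog1) and feeder fibroblast 3 of 11 (2 at Msc and 1 at Col3a1). The 3 fibroblast-list bins had 0 h values of 5.17, 11.37 and 5.63 and were all absent at 24 h, and the part of feeder cells in them was not tested.

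**Figure D5:**
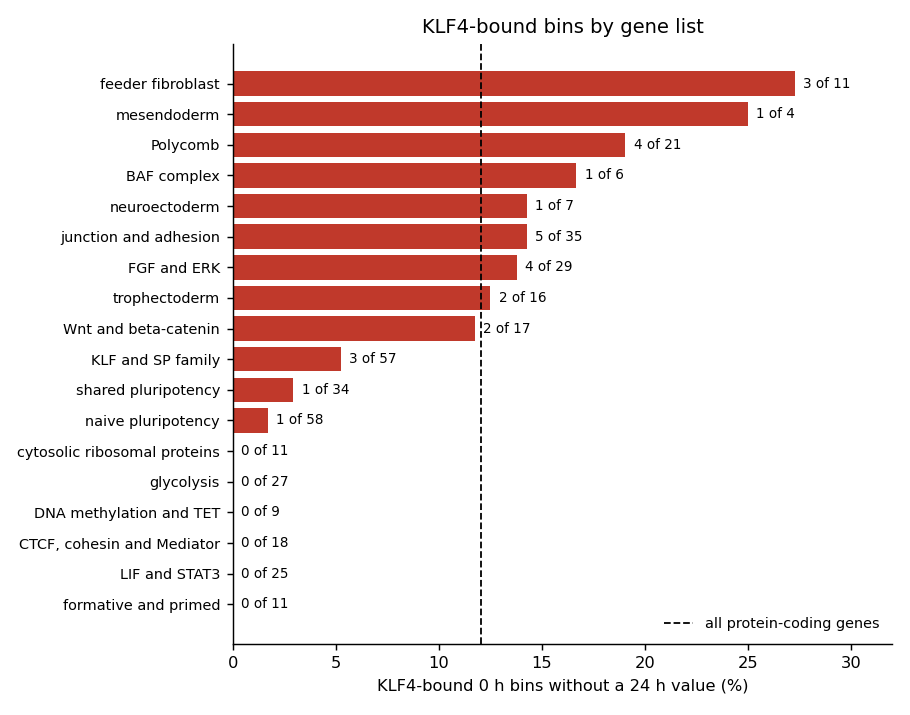
Share of KLF4-bound bins valued at 0 h that had no 24 h value (%), by gene list, with the counts of bins printed at each bar. The primitive endoderm list is not drawn. The dashed line is the share over all protein-coding genes (12.0%). Feeder fibroblast and Polycomb lists lie above it on 11 and 21 bins, and naive pluripotency lies at 1 of 58.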

How the data were processed

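ChIP-seq of mouse ESCs and iPSCs was represented by 4 deposited lists, 1 per ChIP group, tied to groups by their names. Bowtie2, SAMtools, bedtools and MACS2, with mm10, are named per the submitters' processing notes, without versions or roles. How replicates were combined, and how values were normalized, the sources used here do not say. In the ESC lists the authors deposited, column 10 was taken for the H3K27ac signal, where a bin without a value holds 2.23e-308. The whole number in the fourth deposited column is a score of unstated meaning. The iPSC lists the authors deposited hold peak positions only.

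Bins were joined by position. Overlap was 1 bp or more, bins were assigned to the nearest protein-coding gene end within 100 kb (RefSeq, GRCm38.p6), and gene starts and promoters came from RefSeq's promoter table. Intervals are 95% exact for shares and order-statistic for medians, for counting error only: bins are not replicates. With 1 list per group no test was run. Counts and intervals were tested on simulated data (Python 3.11.15, pandas 2.3.3, NumPy 2.4.6, SciPy 1.17.1, matplotlib 3.10.9).

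The bins and gene lists were chosen with earlier results of these data known. Genes named are those with 3 or more 0 h-only bins, those of the 10 bins with the highest 0 h value and score, of the 5 with most KLF4 peaks, and up to 5 per gene list (19 lists). Some items that these rules name are left out of the text. The split into listed and absent bins, the strata by score, the neighbouring bins, the promoter motifs and the highest listed bins were added after the values had been seen. Motifs in KLF4 peaks were planned and not run, as no genome was used here.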

Additional observations from a re-analysis of the deposited data

How the results depend on the processing

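Apart from GGGTGTG, the alternatives were run for the 0 h-only bins alone, so directions against other bins were not recomputed. Of 80 alternative values, 45 stayed within the counting interval, or within 1.5 times for counts, and 35 moved. With only KLF4 peaks of median width or wider, there were 773 bins, 11.97% of KLF4-bound 0 h bins, with an iPSC H3K27ac peak in 70.4%, a gene end within 2 kb in 48.3%, a median 0 h value of 3.97 and 2 genes with 3 or more. When a valued 24 h bin alongside counted as valued, the values were 870 bins, 8.55%, 68.7% with an iPSC peak, a median of 4.09, a 24 h share of the summed score of 29.6% and 3 genes. With listed bins alone they were 465 bins, 4.99%, 44.7%, 50.3% near a gene end, a median value of 3.18, a median score of 4 and 1 gene. With 0 h values above the median of all bins they were 450 bins, 6.90%, 87.3%, 37.8%, a median value of 6.06, a median score of 1 and 1 gene; that median value, raised by the choice itself, is above the 5.79 of all KLF4-bound bins valued at both times. One bin per run of equal 0 h values gave 13.8% of KLF4-bound 0 h bins. A gene end within 5 kb was found for 49.6%, and genes overlapping the bin gave 1 gene with 3 or more. Peak centres, the sex chromosomes and a 50 kb assignment moved no value. GGGTGTG alone, an alternative chosen after seeing the data, was in 11.96% of the 326 promoters under a KLF4 peak in 0 h-only bins. That was near its share in other promoters under a KLF4 peak. It was 10.9% of 3083 in KLF4-bound bins valued at both times and 11.5% of all 5137.

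No paired analysis was possible because each group has 1 list with no value per replicate. The planned search for motifs in KLF4 peaks, and its alternatives, were not run. Read depth and the threshold for a value are unknown, so a missing 24 h value cannot be told apart from a value just under that threshold, and absence from the list says nothing of acetylation.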

Other observations

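The share of KLF4-bound 0 h bins that were 0 h-only ranged over chromosomes from 8.52% on chromosome 18 to 20.4% on chromosome 3 (95 of 466, 16.8 to 24.3). The share of 0 h-only bins that were listed at 24 h ranged from 18.5% on chromosome 13 to 65.0% on chromosome 19.

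The ESC lists carry 5 further columns of marks of unstated meaning. The mark in column 7 was set in 19.2% of the 0 h-only bins, 23.4% of KLF4-bound bins valued at both times and 12.2% of KLF4-free 0 h-only bins. The mark in column 6 was set in 0.30% of the 0 h-only bins and 3.51% of KLF4-bound bins valued at both times, and that in column 9 in 0.08% and 2.77%.

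The 0 h-only bins held 12 miRNA hairpins of the RefSeq table. No count over other bins is given, so nothing is read from this number. Mir193b and Mir146b are shown as examples, outside the naming rules above. The bin of Mir193b had a 0 h value of 2.54 and was listed with a score of 1 at 24 h and 4 at 0 h. That of Mir146b had 2.68, with a score of 4 at 24 h and 5 at 0 h.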
